A study of Mus musculus with 18 samples.

Results

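miR-122, miR-192, miR-194 and miR-215 are microRNAs best known from liver and gut, and their levels were followed across mammary tumours of 18 AKXD recombinant inbred strains. They are 4 of the 583 rows of the deposited matrix of mature microRNAs, taken by name, and all 4 rows were measured in all 18 libraries. Each tumour pool came from F1 mice of 1 AKXD strain crossed to FVB/N-TgN(MMTV-PyVT)634Mul, a line in which the mouse mammary tumour virus promoter drives the polyoma virus middle T oncogene. All animals therefore carry the transgene and an FVB/N genome copy, and they differ in the copy that comes from the AKXD parent, itself a mosaic of AKR/J and DBA/2J. Tumour RNA of a strain was pooled into 1 library, so each strain (numbered 2, 3, 7, 9, 10, 11, 13, 14, 16, 18, 20, 21, 22, 23, 24, 25, 27 and 28) is a group of 1 without a replicate check and normal tissue is not analysed here. The labels give neither the age of the mice nor the number of mice in a pool. In bulk tumour RNA, fewer cells of a type and less RNA per cell cannot be told apart.

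A mature microRNA is cut from a hairpin in a longer primary transcript and pairs with messenger RNAs mainly through its seed, bases 2 to 8. miR-122 is the dominant microRNA of hepatocytes, where it acts on lipid metabolism. miR-192, miR-194 and miR-215 are abundant in the epithelium of gut, in liver and in kidney, their primary transcripts are driven by hepatocyte nuclear factors in such tissues, and p53 raises them in human cells.

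The mature sequences of 3 of the 4 were found in RefSeq's table (GRCm38.p6); miR-122 was not matched. They are shown because the seed groups them differently from their gene positions. The seed is in capitals.
miR-192-5p: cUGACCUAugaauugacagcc
miR-215-5p: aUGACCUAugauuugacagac
miR-194-5p: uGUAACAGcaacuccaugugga
miR-192-5p and miR-215-5p share the seed and 18 of 21 bases. They differ, counted from the 5′ end of miR-192-5p, by C1A, A12U and C20A. Among 1679 mouse mature names in the table, no other had the seed UGACCUA, and none beside miR-194-5p had GUAACAG. How reads with mismatches were placed between miR-192 and miR-215 is not stated in the labels, so levels of this pair carry that uncertainty.

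miR-194-5p comes from a pair of hairpins, each beside one of the seed partners, and both are shown with the mature arm in capitals.
Mir194-1: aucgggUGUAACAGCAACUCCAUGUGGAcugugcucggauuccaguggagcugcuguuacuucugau
Mir194-2: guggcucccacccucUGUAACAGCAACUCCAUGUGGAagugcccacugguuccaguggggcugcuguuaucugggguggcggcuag
Mir194-1 (chr1:185313319-185313385) and Mir215 (chr1:185313581-185313692) lie on the plus strand, 195 bases apart. GENCODE for GRCm38 places both inside the antisense transcript gene 2010103J01Rik, Mir194-1 in an intron and Mir215 in an exon, and in an intron of Iars2 on the opposite strand. Mir194-2 (chr19:6264643-6264728) and Mir192 (chr19:6264844-6264932) lie on the plus strand, 115 bases apart, outside other annotated genes. The capitals above are identical, so the reads of miR-194 do not tell which locus they came from.

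The libraries held 4356739 (strain 7) to 14949047 (strain 27) microRNA reads. Values are normalised read counts in CPM, scaled by a factor per library between 0.671 (strain 14) and 1.67 (strain 28). A set of 281 microRNAs with a mean of at least 10 CPM was tested, and all 4 members passed, miR-215 as the lowest of the 281 at 10.01 CPM (next below the threshold was miR-324-5p at 9.88 CPM). The median of miR-215 was 7.29 CPM, and its mean reached the threshold only through its high levels in strains 14, 27 and 11. Its spread and correlations rest partly on those strains. In alternatives the members were kept whatever their mean. Strains 10, 13, 14 and 20 stood apart at the low end of the first principal component of all tested microRNAs (27.6% of the variance), so results that rest on them are also given without them. Libraries fell into 6 with fewer than 9000000 reads (strains 7, 11, 16, 21, 22 and 28) and 12 with more, a division made after the depths were seen. Luminal epithelial microRNAs summed to 28514 to 54694 CPM, and those of skeletal muscle to 22336 (strain 9) to 303045 CPM (strain 14). Scaling by total reads alone would move the median microRNA by between -0.57 (strain 14) and 0.74 log2 (strain 28).

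miR-122, the hepatocyte microRNA, varied 240-fold between tumour pools. It was highest in strain 14 at 374.8 CPM (3311 reads), followed by strains 10 (182 CPM) and 23 (166 CPM). Strains 9 (92.3 CPM), 20 (89.0 CPM), 24 (71.5 CPM), 2 (70.4 CPM), 27 (70.1 CPM), 25 (59.97 CPM), 13 (57.9 CPM) and 3 (54.1 CPM) formed the middle of the order. It was lower in strains 7 (33.8 CPM), 18 (33.0 CPM), 11 (16.8 CPM), 16 (16.4 CPM) and 22 (12.2 CPM). The lowest were strain 28 at 4.52 CPM (42 reads) and strain 21 at 1.56 CPM (12 reads; exact 95% Poisson interval 0.808 to 2.73 CPM). Strain 14 stood apart above the rest and strains 28 and 21 apart below them. Of the 17 neighbouring pairs in this order, 9 had overlapping counting intervals, among them strains 10 and 23 and strains 24, 2 and 27. Such intervals cover counting error only.

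The depth of the library moved with miR-122. In the 6 libraries under 9000000 reads miR-122 lay between 1.56 and 33.8 CPM (median 14.3), and in the 12 deeper ones between 33.0 and 374.8 CPM (median 70.9), so the ranges overlapped only at strains 7 and 18. Over the 18 strains, miR-122 was higher where more reads were sequenced: Spearman rho was 0.723 (permutation p = 0.00095, adjusted p = 0.0242) and Pearson r 0.729 (permutation p = 0.00062, adjusted p = 0.0193). Pearson r was 0.652 without strains 21 and 28, which lay farthest from the median of miR-122. With the factors of all 18 kept, rho was 0.238 within the 12 deeper libraries and -0.0286 within the 6 shallower ones. miR-122 also ran against the scaling factor, with rho = -0.655 (permutation p = 0.00392, adjusted p = 0.0540) and r = -0.687 (permutation p = 0.0015, adjusted p = 0.0301; r = -0.634 without strains 21 and 28). The call was lost, with an adjusted p of 0.0536 to 0.0699 and rho between 0.672 and 0.694, when strain 3, 16, 18, 21, 22 or 28 was left out. Of the 281 tested microRNAs, 13 had a rho with reads at least as far from 0 as miR-122, against a median distance of 0.253. The part of depth and scaling in the level was not tested.

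**Figure D1:**
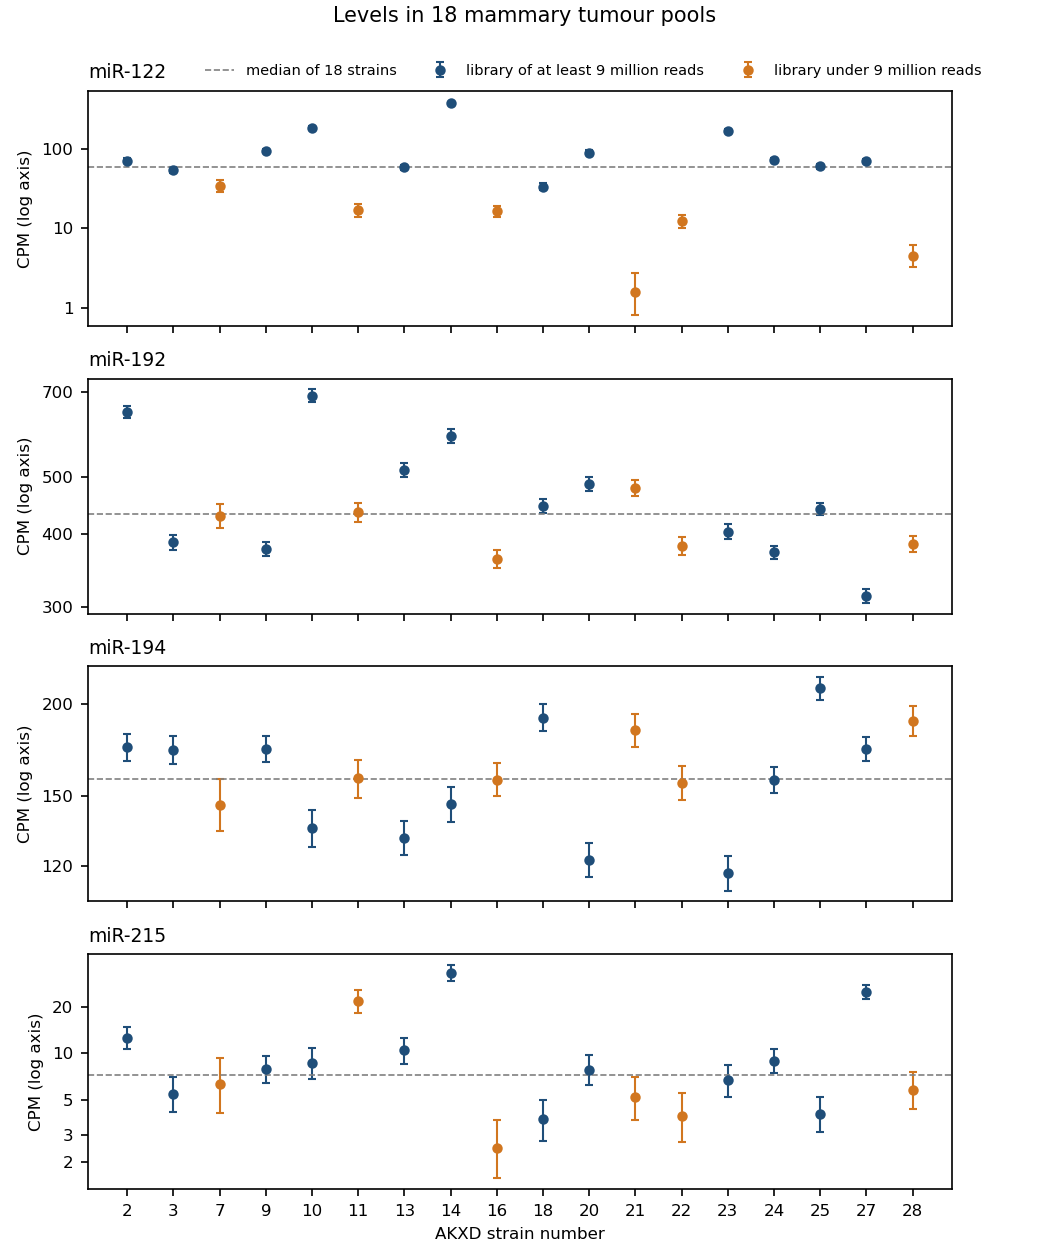
CPM on log axes of miR-122, miR-192, miR-194 and miR-215 in each of the 18 strains, in order of strain number, with bars for the exact 95% Poisson interval of the reads and a dashed line at the median. miR-122 runs from 1.56 to 374.8 CPM and is lowest in libraries under 9000000 reads (orange), whereas miR-194 stays between 118 and 210.3 CPM.

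miR-192 was the most abundant of the 4, with a mean of 452 ± 102 CPM (SD, n = 18 strains). It was highest in strains 10 (689.9 CPM), 2 (647 CPM), 14 (588 CPM) and 13 (514 CPM), whose counting intervals did not overlap each other. Strain 20 followed at 487 CPM and strain 21 at 479.6 CPM. From strain 18 (447 CPM) down to strain 16 (362 CPM) each neighbour overlapped the next: strain 25 had 441 CPM, strain 11 436 CPM, strain 7 429.8 CPM, strain 23 404 CPM and strain 3 387 CPM. Strain 28 had 385 CPM, strain 22 382 CPM, strain 9 377 CPM and strain 24 372 CPM. Strain 27 stood apart as the lowest at 313 CPM (4874 reads). The 4 strains of the first principal component had 487 to 689.9 CPM, and the 14 other strains 313 to 647 CPM, so these ranges overlapped, and 4 of the 5 highest levels were theirs. These 4 also had the lowest scaling factors, 0.671 to 0.776, with strain 11 next at 0.850. Before scaling, miR-192 made up 0.0493% of the reads in strain 10, 0.0396% in 13, 0.0395% in 14 and 0.0378% in 20. The 14 others had 0.0326% (strain 27) to 0.0679% (strain 2), so the high place of these 4 depends on the scaling.

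miR-194, the product of both loci, varied little in CPM, with a mean of 161 ± 25.2 CPM (SD, n = 18 strains). It was highest in strain 25 at 210.3 CPM, the 1 strain whose interval did not overlap that of its neighbour. Strain 18 had 192 CPM, strain 28 189.7 CPM, strain 21 184 CPM, strain 2 175 CPM, strain 27 174 CPM, strain 9 173.5 CPM and strain 3 173 CPM. Strains 11, 16, 24 and 22 lay between 156 and 158 CPM, and strains 14 and 7 each at about 146 CPM. The lowest were strain 10 at 135 CPM, strain 13 at 131 CPM, strain 20 at 122 CPM and strain 23 at 118 CPM (1294 reads). Strains 10, 13, 14 and 20 had 122 to 146 CPM of miR-194, and the 14 other strains 118 to 210.3 CPM.

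miR-215, the seed partner of miR-192, was scarce, with a mean of 10.01 ± 8.28 CPM (SD, n = 18 strains) and 23 to 388 reads per library. Strains 14 (33.1 CPM), 27 (25.0 CPM) and 11 (21.7 CPM) were high, and a step of 1.72-fold separated them from strain 2 (12.6 CPM). Strains 13 (10.5 CPM), 24 (8.99 CPM), 10 (8.69 CPM), 9 (7.94 CPM) and 20 (7.87 CPM) came next. Strain 23 had 6.71 CPM, strain 7 6.35 CPM, strain 28 5.85 CPM, strain 3 5.45 CPM and strain 21 5.23 CPM. The lowest were strain 25 (4.07 CPM), strain 22 (3.94 CPM), strain 18 (3.77 CPM) and strain 16 (2.48 CPM, 23 reads). Below strain 11 the counting interval of every strain overlapped that of the next, so that the order among the 15 lower strains is not resolved neighbour by neighbour at this depth.

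The 4 microRNAs thus took different places in the spread over strains. On the log2(CPM + 1) scale the SD over 18 strains was 1.79 for miR-122, 0.88 for miR-215, 0.30 for miR-192 and 0.23 for miR-194, against a median of 0.45 over the 281 tested microRNAs (quartiles 0.34 and 0.61). From the largest SD down, miR-122 ranked 4, miR-215 31, miR-192 239 and miR-194 271 of 281. Read counting alone would give 0.10, 0.15, 0.02 and 0.04 log2 for miR-122, miR-215, miR-192 and miR-194, so each spread was at least 5.71 times that of counting. With total reads alone the SD of miR-194 was 0.51 log2. Its level and the scaling factor had rho = 0.645 (permutation p = 0.00466, adjusted p = 0.0562) and r = 0.683 (permutation p = 0.00198, adjusted p = 0.0350; r = 0.769 without strains 23 and 25). miR-192 had rho = -0.579 (adjusted p = 0.0979) and r = -0.593 (adjusted p = 0.0804) with it. In the 12 deeper libraries, with the factors of all 18 kept, the SD of miR-122 was 0.93 log2.

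**Figure D2:**
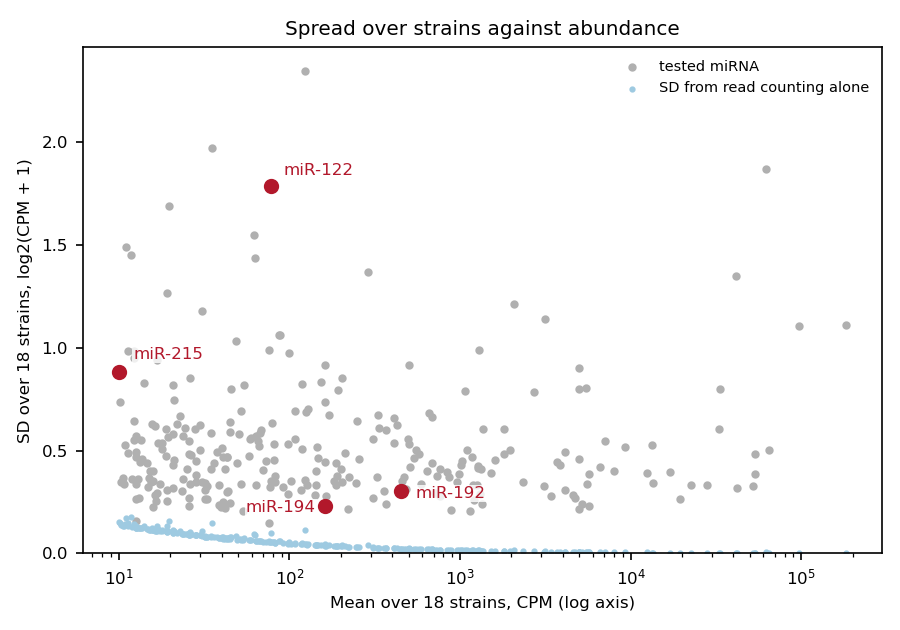
SD over 18 strains of log2(CPM + 1) against mean CPM (log axis) for the 281 tested microRNAs (grey), the 4 members (red) and the SD that read counting alone would give (blue). miR-122 (SD 1.79) lies near the top, miR-192 (0.30) and miR-194 (0.23) near the bottom of the cloud.

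Ratios within a library do not depend on how libraries are scaled, and they showed how the neighbours and seed partners moved against each other. They are ratios of reads, which can differ from ratios of molecules. The reads of miR-192 were 1.80 (strain 27) to 5.10 (strain 10) times those of miR-194, with a median of 2.52. Strains 10, 14, 20 and 13 had the 4 highest ratios, 3.92 to 5.10, and the 14 other strains lay between 1.80 and 3.71, without overlap of the values. The closest were strain 13 (3.92) and strain 2 (3.71). No counting intervals were computed for the ratios, so this last gap is not shown to exceed counting error. The SD of this log2 ratio was 0.42, or 0.29 without those 4 strains, and 0.04 from counting. Among 39340 pairs of tested microRNAs, compared on the log2(CPM + 1) scale, 11.9% had a ratio with a smaller SD. The median over pairs was 0.68.

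miR-215 moved apart from its own neighbour and from its seed partner. The ratio of miR-194 to miR-215 ran from 63.6 (strain 16) to 4.41 (strain 14), with a median of 19.7 and an SD of 1.07 log2. The ratio of miR-192 to miR-215 ran from 146 (strain 16) to 12.6 (strain 27), with a median of 63.8 and an SD of 0.96 log2. On the log2(CPM + 1) scale, which does depend on scaling, the SDs were 0.961 and 0.858. Of all pairs of tested microRNAs, 76.3% and 68.8% had a smaller SD on that scale. Strains 14, 27 and 11, the highest in miR-215, had the 3 lowest values of both ratios. Counting error alone would give 0.19 log2 for each. miR-122 had 0.637 reads per read of miR-192 in strain 14 and 0.00326 in strain 21 (SD 1.85 log2).

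**Figure D3:**
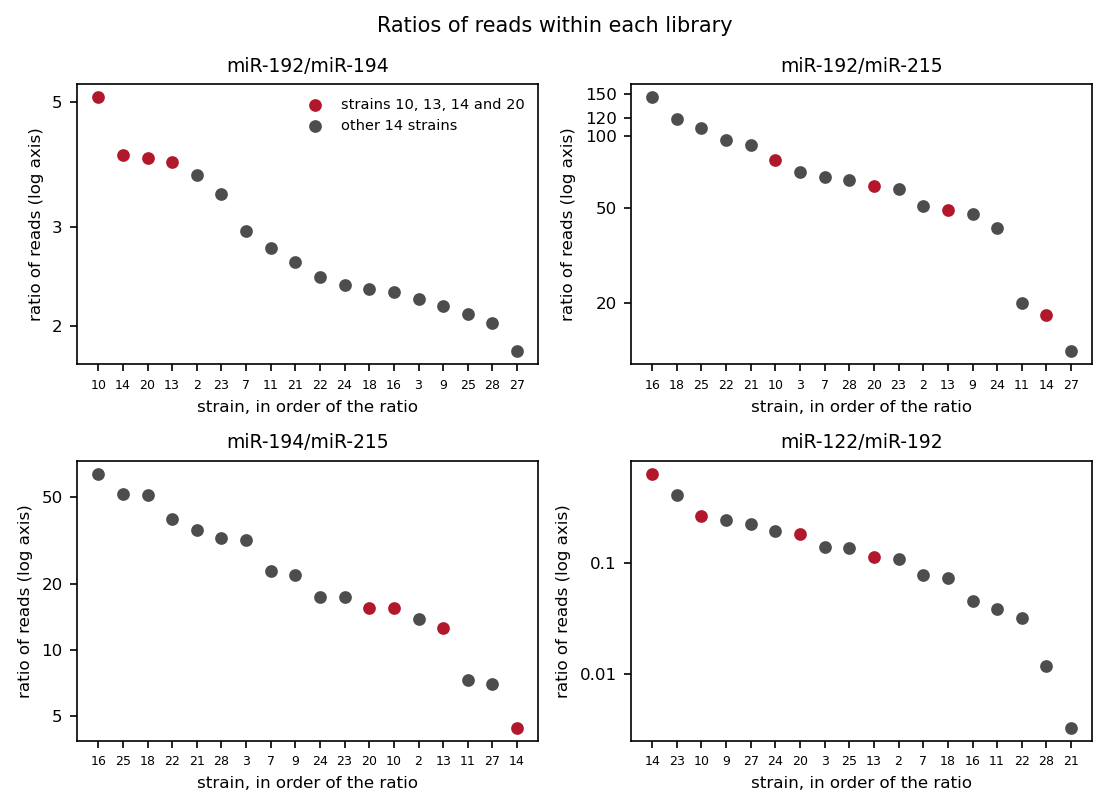
Ratios of reads within each library on log axes, strains ordered from the highest to the lowest ratio, with strains 10, 13, 14 and 20 in red. For miR-192/miR-194 these 4 strains hold the highest values (3.92 to 5.10), and for miR-194/miR-215 strain 14 holds the lowest (4.41).

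Whether the 4 rose and fell together over strains was tested with rank correlations, as part of 1122 correlations of each member with every other tested microRNA, the library reads and the scaling factor. No pair of members passed. miR-192 and miR-194, neighbours on chromosome 19, had rho = -0.174 (permutation p = 0.485, adjusted p = 0.666) and r = -0.255 (permutation p = 0.306, adjusted p = 0.511; r = -0.276 without strains 10 and 2). Its sign turned without strains 10, 13, 14 and 20 (rho = 0.279 with factors set anew, 0.398 with factors kept) and under total reads alone (rho = 0.614, adjusted p = 0.0509). miR-194 and miR-215, neighbours on chromosome 1, had rho = -0.292 (permutation p = 0.239, adjusted p = 0.436) and r = -0.221 (permutation p = 0.378; r = -0.203 without strains 23 and 25). The seed partners miR-192 and miR-215 had rho = 0.253 (permutation p = 0.307, adjusted p = 0.502) and r = 0.254 (permutation p = 0.309; r = 0.228 without strains 10 and 2), with rho = -0.298 under total reads.

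miR-122 had rho = 0.583 with miR-215 (permutation p = 0.0124, adjusted p = 0.0921) and r = 0.458 (permutation p = 0.0552; r = 0.474 without strains 21 and 28), and passed only when strain 11 was left out (rho = 0.696, adjusted p = 0.039). With miR-194 it had rho = -0.461 (permutation p = 0.0547, adjusted p = 0.193) and r = -0.469 (permutation p = 0.0492; r = -0.326 without strains 21 and 28). With miR-192 it had rho = 0.292 (permutation p = 0.240, adjusted p = 0.436) and r = 0.331 (permutation p = 0.179; r = 0.467 without strains 21 and 28). The last turned to rho = -0.317 under total reads, and was -0.156 without strains 10, 13, 14 and 20 with factors kept. In simulated strains of this size the test called 100% of 80 microRNAs with a true correlation of 0.9. It called 72.5% of those with 0.8 and 0% of those with 0.6, so relations of moderate size can be missed. The simulated microRNAs all had the same SD before counting and no pattern common to all, unlike the data. These rates therefore need not hold for the tests above.

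**Figure D4:**
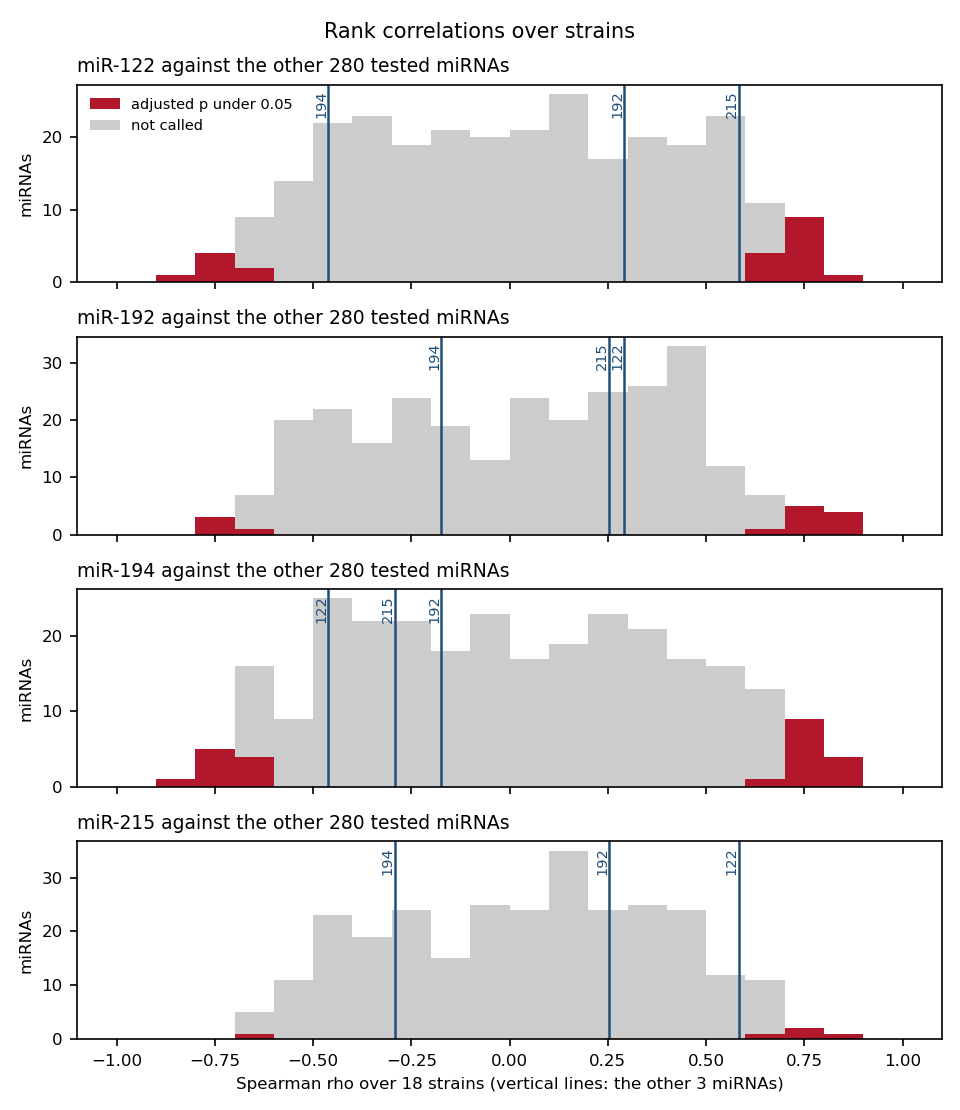
Histograms of Spearman rho over 18 strains between each of the 4 microRNAs and the other 280 tested microRNAs, with calls at an adjusted p under 0.05 in red and blue lines at the other 3 members. All blue lines fall among the uncalled values, from -0.461 to 0.583.

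The microRNAs with a similar or opposite pattern over strains numbered differently for each member. Of 280, 24 were called with miR-194 (8.57%), 14 of them positive (5%) and 10 negative (3.57%). With miR-122, 21 were called (7.5%), 14 positive (5%) and 7 negative (2.5%). With miR-192, 14 were called (5%), 10 positive (3.57%) and 4 negative (1.43%). With miR-215, 5 were called (1.79%), 4 positive (1.43%) and 1 negative (0.357%). Under total reads 129 were called with miR-194, 23 with miR-122, 26 with miR-192 and 3 with miR-215. In the 12 deeper libraries alone 0 were called with each member by Spearman and by Pearson r, and 24 to 72 had an unadjusted p under 0.05. Every one of the calls over 18 strains kept its sign without strains 10, 13, 14 and 20. With the 14 remaining strains 0 passed by Spearman for each member, 20 to 44 had an unadjusted p under 0.05, and Pearson r called 0 to 2. With total reads 20 of the 21 calls of miR-122, 19 of 24 of miR-194, 10 of 14 of miR-192 and 5 of 5 of miR-215 kept it. Within the 6 libraries under 9000000 reads, 18 of 21, 23 of 24, 13 of 14 and 5 of 5 did. The calls were picked over these same libraries for a strong rho, so a kept sign was largely fixed in advance. Such signs are no separate support, and no share was computed for uncalled microRNAs. miR-122 and miR-215 shared 4 calls, miR-107, miR-126-3p, miR-16 and miR-98, all in the same direction, which are 4 of 5 for miR-215 and 4 of 21 for miR-122. All 4 had a rho of 0.628 to 0.835 with library reads and of -0.882 to -0.583 with the scaling factor. miR-122 and miR-215 themselves had rho of 0.723 and 0.521 with reads, and -0.655 and -0.695 with the factor. The part of depth and scaling in this overlap was not tested. miR-192 shared 1 call with miR-122 and 1 with miR-194, and the other 3 pairs of members 0. The counts were sensitive to single libraries. For miR-122 the count was 32 without strain 9, 10 without strain 10, 14 or 21, 11 without 16 or 28, 12 without 18 and 13 without 3. For miR-192 it was 22 without strain 25 and 6, 8, 7 and 9 without strains 10, 14, 27 and 28. For miR-194 it was 37 without strain 2. For miR-215 it was 17 without strain 2, 12 without 11, 11 without 25, 8 without 9, 3 without 10 or 14, 2 without 3, 7, 21 or 28 and 1 without 18.

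miR-122 ran closest to miR-15b, a member of the family that targets cell cycle genes: rho = 0.814 (permutation p = 9e-05, adjusted p = 0.0103) and r = 0.822 (permutation p = 4e-05; 0.781 without strains 21 and 28). miR-15b ranged between 305 CPM (strain 27) and 124 CPM (strain 16). The rank correlation was 0.531 in the 12 deeper and 0.0857 in the 6 shallower libraries, and 0.385 under total reads. miR-103 (rho = 0.7998), miR-98 (0.794) and let-7d (0.783), both of the let-7 family, and miR-16 (0.754), of the family of miR-15b, came next, with adjusted p of 0.0187 or less and r of 0.646 to 0.801. In the 6 shallower libraries miR-16 had rho = -0.371. miR-339-3p (rho = -0.841), miR-190 (-0.798) and miR-345-5p (-0.752) ran most opposite (adjusted p = 0.00841, 0.0106 and 0.0187). Under total reads these 3 were at -0.796, -0.779 and -0.771, and in the 6 shallower libraries at -0.0857, -0.0286 and 0.657. These partners were themselves among the microRNAs most tied to library reads. Their rho with reads was 0.880 for let-7d, 0.870 for miR-15b and 0.835 for miR-16, the 3 strongest of 281. It was -0.783 for miR-190, -0.771 for miR-339-3p, 0.7503 for miR-103, -0.653 for miR-345-5p and 0.628 for miR-98. The part of depth in these relations was not tested.

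miR-192 ran closest to miR-30a*, a row marked * as the passenger arm of its hairpin. miR-30a* had rho = 0.880 (permutation p = 3e-05, adjusted p = 0.00841) and r = 0.831 (permutation p = 8e-05; 0.809 without strains 10 and 2), with a high of 9811 CPM (strain 10) and a low of 2743 CPM (strain 16). miR-151-3p (rho = 0.874), miR-106b* (0.820), miR-30e* (0.814) and miR-28* (0.759) followed, with adjusted p of 0.0157 or less and r of 0.775 to 0.860. Rows marked * were 8 of the 14 called, against 51 of the 280 tested. For the other members they were 6 of 24 called (miR-194), 1 of 21 (miR-122) and 0 of 5 (miR-215). The mark does not always name the scarcer arm: miR-28* had a mean of 767 CPM and miR-28 of 358 CPM. Within the 12 deeper libraries rho was 0.937 for miR-30a* and for miR-151-3p, and under total reads 0.639 and 0.773. In the 6 shallower libraries rho was 0.257 for miR-30a*, 0.314 for miR-151-3p and 0.371 for miR-28*. It was 0.943 for miR-30e* and 1 for miR-106b* there. miR-376b* (rho = -0.7998), miR-30c (-0.752) and miR-22 (-0.740) were the most opposite, and all 3 had a positive rho under total reads (0.160, 0.166 and 0.292). With the scaling factor, rho was -0.626 for miR-151-3p, -0.593 for miR-30e*, -0.560 for miR-30a*, -0.453 for miR-28* and -0.422 for miR-106b*. It was 0.682 for miR-22, 0.610 for miR-30c and 0.577 for miR-376b*. The median distance from 0 over tested microRNAs was 0.377. The part of scaling in these relations of miR-192 was not tested.

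miR-194 ran closest to miR-183*, the passenger arm of the miR-183 hairpin: rho = 0.849 (permutation p = 2e-05, adjusted p = 0.00841) and r = 0.806 (permutation p = 7e-05; 0.856 without strains 23 and 25). miR-183* had 86.6 CPM in strain 25 and 9.71 CPM in strain 14. Strains 10, 13, 14 and 20 were the lowest in miR-183*, at 9.71 to 14.1 CPM against 27.4 to 86.6 CPM in the 14 others, and rho among the 14 others was 0.798. miR-24-2* (rho = 0.835), miR-188-5p (0.825), miR-18a (0.806) and miR-297c (0.789) followed. They had adjusted p of 0.0107 or less, r of 0.713 to 0.778 and rho of 0.864 to 0.940 under total reads. miR-184 (-0.804), miR-20a* (-0.777) and let-7f (-0.756) were the most opposite, with adjusted p of 0.0187 or less and r of -0.757 to -0.711. Under total reads they were at -0.728, -0.222 and -0.426. Like miR-194, its named partners followed the scaling factor, with rho of 0.814 for miR-183*, 0.787 for miR-24-2*, 0.713 to 0.723 for miR-188-5p, miR-297c and miR-18a, -0.765 for miR-184, -0.707 for miR-20a* and -0.870 for let-7f. The part of scaling in these relations was not tested.

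miR-215 ran closest to miR-126-3p, a microRNA of endothelium: rho = 0.849 (permutation p = 5e-05, adjusted p = 0.00935) and r = 0.817 (permutation p = 6e-05, adjusted p = 0.00997), or r = 0.680 without strains 14 and 27. Like miR-215, miR-126-3p was highest in strains 14 and 27 (20882 and 17222 CPM) and lowest in strain 16 (7239 CPM). The rank correlation was 0.824 without strains 10, 13, 14 and 20, 0.811 in the 12 deeper libraries, 0.771 in the 6 shallower ones and 0.662 under total reads. miR-107 (rho = 0.740), miR-98 (0.717) and miR-16 (0.690) were the other positive calls (adjusted p = 0.0187, 0.0276 and 0.0422). For miR-107, which reached 209 CPM in strain 14, r fell to 0.375 without strains 14 and 27, so that its linear relation rests on those strains. miR-671-5p (rho = -0.680, adjusted p = 0.0487) was the 1 negative call. miR-340-5p (rho = 0.657, adjusted p = 0.0536), miR-92b (-0.672, adjusted p = 0.0511) and miR-872* (-0.653, adjusted p = 0.0540) came nearest without passing. The scaling factor had rho = -0.695 (adjusted p = 0.0399) and r = -0.558 (adjusted p = 0.0994) with miR-215. miR-126-3p had rho = -0.882 with that factor and 0.744 with library reads. The other positive calls, miR-107, miR-98 and miR-16, had rho of -0.631, -0.670 and -0.583 with the factor. With library reads they had 0.725, 0.628 and 0.835. The part of scaling and depth in these relations was not tested.

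**Figure D5:**
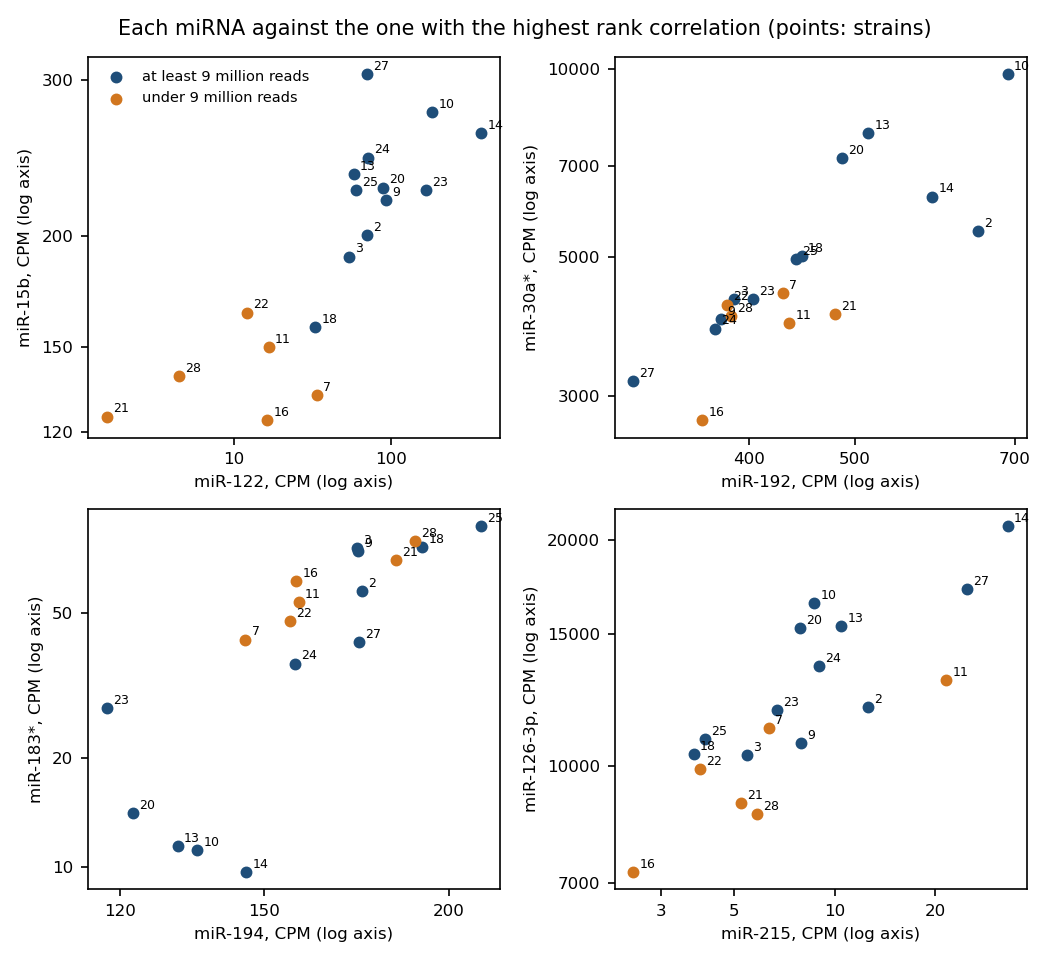
CPM of each member (x, log axis) against the tested microRNA with the highest rank correlation (y, log axis); points are strains, labelled by number, with libraries under 9000000 reads in orange. The lowest left points for miR-122 are shallow libraries, strains 10, 13, 14 and 20 are the lowest for miR-183*, and strains 14 and 27 end the trend of miR-215 with miR-126-3p.

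Markers of other cell types in the tumours were set beside the members in 10 lists with 30 tested microRNAs. With miR-122, 2 of 30 were called, miR-126-3p (rho = 0.738, adjusted p = 0.0192) and miR-200c of luminal epithelium (rho = 0.676, adjusted p = 0.0497), both positive. These are 6.67% of the lists, against 7.5% of all 280. The rest of the luminal list did not follow miR-200c: rho with miR-122 was 0.486 for miR-141, 0.360 for miR-200b, 0.170 for miR-429 and -0.401 for miR-200a. Under total reads miR-200c had rho = 0.135. With miR-215, miR-126-3p alone was called (3.33% of the lists, against 1.79% of all 280), and with miR-192 and miR-194 0 of 30 by Spearman (against 5% and 8.57%). With miR-192, 2 of 30 had an unadjusted p under 0.05 (6.67%, against 24.3% of all 280) and Pearson r called 1, miR-145 (rho = -0.620, adjusted p = 0.0713). With miR-194, 9 had an unadjusted p under 0.05 (30%, against 31.4%) and Pearson r called 1, miR-143 (rho = -0.670, adjusted p = 0.0514). miR-143 and miR-145 make up the smooth muscle list and ran opposite ways: miR-143 had rho = 0.465 with miR-192, and miR-145 rho = 0.507 with miR-194. The other arm of the endothelial hairpin, miR-126-5p, had rho = -0.364 with miR-122 and 0.247 with miR-215. In the skeletal muscle, erythroid, leukocyte, basal epithelial, mesenchymal, smooth muscle, pancreas and neural lists Spearman called nothing with any member. Median rho over all 280 was 0.03 for miR-122, 0.07 for miR-192, -0.02 for miR-194 and 0.08 for miR-215.

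Summed levels of blood, vessel and muscle microRNAs in the 3 strains highest in miR-215 were set beside those of the others. This comparison was chosen after the values were seen. The summed level of miR-142-3p, miR-142-5p, miR-150, miR-155 and miR-223 was 18249 CPM (strain 27), 12062 CPM (strain 11) and 6610 CPM (strain 14), and 1573 to 6727 CPM in the 15 other strains (median 3828), so that strains 27 and 11 were the highest and strain 14 lay below strain 28. By rank the relation was not called: miR-155 had rho = 0.635 with miR-215 (permutation p = 0.00591, adjusted p = 0.0650), miR-150 0.478 (adjusted p = 0.179), miR-142-5p 0.461 (adjusted p = 0.193), miR-142-3p 0.420 (adjusted p = 0.244) and miR-223 0.0568 (adjusted p = 0.893). By Pearson r it was called for miR-142-5p (r = 0.798, adjusted p = 0.0156), miR-155 (r = 0.766, adjusted p = 0.0183) and miR-150 (r = 0.753, adjusted p = 0.0193), and r was 0.613, 0.665 and 0.513 for these without strains 14 and 27. Strain 11 stayed in for the latter values. miR-215 reached the threshold of mean CPM only through strains 14, 27 and 11, so these Pearson calls are no separate support for a relation. Erythroid microRNAs summed to 808 CPM (strain 14), 780.03 CPM (strain 27) and 491 CPM (strain 11), and 206 to 581 CPM in the others. Endothelial microRNAs summed to 22301 CPM (strain 14), 19482 CPM (strain 27) and 14723 CPM (strain 11), and 8286 to 17239 CPM in the others. This list holds only miR-126-3p and miR-126-5p, and miR-126-3p gave 20882 of the 22301 CPM in strain 14. Its sum thus largely repeats the relation of miR-215 with miR-126-3p given above. Skeletal muscle microRNAs summed to 303045 CPM (strain 14), 161449 CPM (strain 11) and 131395 CPM (strain 27), and 22336 to 169908 CPM in the others. Those of smooth muscle summed to 60044 CPM (strain 14), 29394 CPM (strain 11) and 24735 CPM (strain 27), and 15371 to 57494 CPM in the others. High sums in strain 14 were thus not limited to blood and vessel microRNAs. The part of these cells in the level of miR-215 was not tested.

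Other microRNAs of liver, gut and kidney were scarce or did not pass the test. miR-802, found in liver, pancreas and gut, had 0 to 11 reads per library (mean 0.224 CPM), and miR-483, from an intron of Igf2, 0 to 3 reads. Of the 5 tested microRNAs of that list, miR-375, miR-31, miR-196b, miR-204 and miR-148a, none was called with any member by Spearman or by Pearson r, and 2 of these 20 relations (10%) had an unadjusted p under 0.05, against 26.2% of all relations of the 4 with tested microRNAs. The nearest was miR-196b with miR-215 (rho = 0.5996, adjusted p = 0.0829). The part of hepatocyte RNA in the level of miR-122 was not tested.

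Other microRNAs linked to p53 were set beside the members. Of 9 in the list, 7 were tested. miR-34a, the best known p53 target, had rho = 0.418 with miR-194 (adjusted p = 0.246), -0.321 with miR-192 (adjusted p = 0.378) and -0.110 with miR-215 (adjusted p = 0.792). miR-34c had -0.602 with miR-194 (adjusted p = 0.0820). The calls were miR-15a with miR-194 (rho = 0.785, adjusted p = 0.0106), and miR-107 and miR-16 with both miR-122 and miR-215, as given above: 1 of 7 for miR-194 (8.57% of all 280), 2 of 7 for miR-122 (7.5% of all), 2 of 7 for miR-215 (1.79% of all) and, by Spearman, 0 of 7 for miR-192 (5% of all). For miR-192, 2 of 7 had an unadjusted p under 0.05, against 24.3% of all 280, and Pearson r called miR-145 and miR-15a, both negative. With miR-194, Pearson r called 3 of 7: miR-15a was positive, and miR-34c (r = -0.651, adjusted p = 0.0379) and miR-143 (r = -0.688, adjusted p = 0.0333) were negative. miR-15a followed the scaling factor (rho = 0.637), as miR-194 did (rho = 0.645). miR-107 and miR-16 followed library reads (rho = 0.725 and 0.835). The part of depth and scaling in the calls within this list was not tested. No measure of p53 is in these data.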

How the data were processed

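Small RNA of 18 tumour pools was read on Illumina's Genome Analyzer IIx, as the series' design text states. The deposited table holds 583 mature microRNA rows and 18 columns of log2 values. Columns were matched to strains through the sample descriptions. BWA and mm9 are named per the submitters' processing notes; no label states the counter, annotation or filters. Made linear, each deposited log2 value equals whole reads multiplied by a library constant (100% of 3818 values of up to 50 reads, within 0.006 log2).

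A deposited 0 was kept at 0 (in strain 25 it can also stand for 1 read). Rows with identical values (20) were counted once, which left 571. TMM factors (30% of M and 5% of A values trimmed) scaled the libraries to CPM (counts per 1000000 reads), with a pseudocount of 1 CPM and a minimum mean of 10 CPM. The depth gives counting SDs of 0.02 to 0.15 log2 for the 4 rows. Because the unit is log2 and not counts, no count model was run.

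Spearman and Pearson correlations were tested two-sided with 100000 resamples. Benjamini-Hochberg adjustment ran over all 1122 relations, threshold 0.05. Each p-value refers to the correlation of 2 measures over these 18 libraries, and the SDs over strains were not tested. On simulated data the test recovered 100%, 72.5% and 0% of 80 relations of 0.9, 0.8 and 0.6 over 281 rows, with 5.88%, 0% and 0% of calls false. Simulated rows had 1 common SD before counting and no pattern common to all, so these rates need not hold for the data. Named microRNAs are the members, the 5 highest and 3 lowest rho per member, and list members; * rows of the members were not analysed here. Members and lists were chosen with earlier results of these data known. Alternatives were other scalings, filters, a pseudocount, Pearson r, identical rows all counted and libraries left out. Coordinates are of GRCm38, not of the authors' mm9. Python 3.11.15, numpy 2.4.6, pandas 2.3.3, scipy 1.17.1 and matplotlib 3.10.9 were used.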

Additional observations from a re-analysis of the deposited data

How the results depend on the processing

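Without a filter, with a minimum of 100 CPM and with identical rows all counted, every result recomputed kept its direction and its side of the threshold, counts within 1.5 times. Under total reads alone, the microRNAs correlated with miR-192, miR-194 and miR-215 numbered 26, 129 and 3, the SD of miR-194 was 0.51, and rho turned to 0.614 for miR-192 with miR-194, -0.298 for miR-192 with miR-215 and -0.317 for miR-122 with miR-192. Median of ratios gave 8 for miR-215, the upper quartile an SD of 0.35 for miR-192, and Pearson r 25 for miR-192. A pseudocount of 5 CPM gave an SD of 0.64 for miR-215 and log2 ratio SDs of 0.64 for miR-192 with miR-215 and 0.72 for miR-194 with miR-215. Without strains 10, 13, 14 and 20 the counts for the 4 members were 0, 0, 0 and 0, the SD of miR-192 0.24, the log2 ratio SD of miR-192 with miR-194 0.29, and rho turned to 0.279 for miR-192 with miR-194 and -0.169 for miR-192 with miR-215. There, miR-122 with library reads had rho = 0.754 (adjusted p = 0.174). Without strain 28 as well, the counts were 0, 0, 0 and 1, the ratio SD 0.29, and rho 0.396 for miR-192 with miR-194, -0.253 for miR-122 with miR-192 and 0.758 for miR-122 with library reads (adjusted p = 0.261). In the 12 deeper libraries, an alternative chosen after seeing the data, the counts were 0, 0, 0 and 0 by Spearman and by Pearson r, with 24 to 72 at an unadjusted p under 0.05. With filter and factors set anew on these 12, the SD of miR-122 was 0.92 and its rho with library reads 0.294 (adjusted p = 0.628). Fewer strains also leave less power, and beyond this the causes were not tested.

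With each strain left out in turn, the count ran from 10 to 32 for miR-122, 6 to 22 for miR-192, 16 to 37 for miR-194 and 1 to 17 for miR-215. The rank correlation of miR-122 ran from 0.466 to 0.696 with miR-215 and from 0.672 to 0.762 with library reads. No paired analysis was possible because each strain has 1 library and no replicate number. The lowest library held 12 reads of miR-122 and 23 of miR-215.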
